A study of Mus musculus with 11 samples.

Results

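The cytosolic ribosomal protein genes encode the proteins of the large (Rpl) and small (Rps) subunits of the ribosome. They were taken from a deposited table of H3K27ac regions as every region whose gene symbol is Rpl or Rps followed by a number, with any paralog suffix, together with Rpsa and the stalk genes Rplp0, Rplp1 and Rplp2. This gave 237 regions of 65 genes, 39 of the large and 26 of the small subunit, among 56342 regions of 12081 genes. H3K27ac, the acetylation of lysine 27 on histone H3, marks active promoters and enhancers. It was profiled by chromatin immunoprecipitation and sequencing (ChIP-seq) in the mouse pre-T cell line Beko after 24 h under 3 conditions with 2 libraries each. The cells received DMSO as the control, apicidin at 0.01 mg/ml, a histone deacetylase inhibitor labelled as acting on HDAC3, or DAPT at 10 mg/ml, a gamma-secretase inhibitor (GSI) that keeps Notch receptors from being cleaved. RBPJ, the DNA-binding partner of cleaved Notch, was profiled under DMSO with 2 libraries, and each condition had 1 input, for 11 libraries in all. All cells were of 1 line, no genotype other than that of the line is labelled, and the labels do not state that libraries were separate cultures, so the p-values measure a spread that may be technical.

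Ribosomal protein genes are among the most strongly transcribed genes of growing cells, and their products are needed in near-equal amounts. Their promoters lie in CpG islands and commonly lack a strong TATA box, and their messenger RNAs begin with a run of pyrimidines, the 5′ terminal oligopyrimidine (TOP) tract, through which growth signals control translation. Proliferating T-cell precursors depend on ribosome production, and several of these proteins have further roles outside the ribosome.

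The table holds no value per library, so depth is unknown and each condition is described by the authors' base mean (the mean normalised read count), their DESeq2 log2 fold change against DMSO and its standard error (SE). The labelled cell type was checked first. All 10 pre-T markers, among them Ptcra, Cd3e, Rag1 and Bcl11b, had H3K27ac regions, whereas 3 of 4 B-lineage, 1 of 4 myeloid and 2 of 3 erythroid markers had any, with none of those over a transcription start site (TSS). H3K27ac at 6 of the 10 pre-T markers was lower with GSI.

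A region that covers a TSS was present for 53 of the 65 ribosomal protein genes, and each of the 53 had exactly 1. For the other 12 genes, among them Rpl10, Rpl27, Rpl37, Rpl39l, Rpl3l, Rps12, Rps25, Rps29 and Rps3, the region of highest base mean stood for the gene. These 65 are called main regions here. The number of regions per gene had a median of 2 and reached 19, for Rpl5, while 19 genes had a single region.

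The start sites were read in the promoter windows of RefSeq on build GRCm38.p6, which run 250 bases before and 50 from the start on and were matched by symbol: 51 of the 65 genes matched, with 60 windows. From them, 3 sequence features are printed because they were more frequent in windows of ribosomal protein genes with a TSS-covering region (50 windows) than in those of other genes with one (7382 windows). The first is the CG-rich element TCTCGCGA, searched on both strands, which was in 20% of the former and 2.4% of the latter windows, and in 1.0% of all 32851 windows. Rps19 and Rpl10a, the genes with a TSS-covering region that was lower with GSI, both hold it. The lines below give 60 bases before the start and 20 from it on for 7 genes with the element. Capitals mark every match, and overlapping matches on opposite strands run together.
Rps19 (chr7:24884532-24884611, plus strand): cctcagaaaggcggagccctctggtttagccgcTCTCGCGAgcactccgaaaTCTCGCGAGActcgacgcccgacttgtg
Rpl10a (chr17:28328505-28328584, plus strand): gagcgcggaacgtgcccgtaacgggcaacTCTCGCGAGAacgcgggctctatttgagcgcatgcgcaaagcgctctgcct
Rpl26 (chr11:68901506-68901585, plus strand): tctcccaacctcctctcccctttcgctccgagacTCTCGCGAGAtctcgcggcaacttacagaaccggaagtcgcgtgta
Rpl27a (chr7:109519135-109519214, plus strand): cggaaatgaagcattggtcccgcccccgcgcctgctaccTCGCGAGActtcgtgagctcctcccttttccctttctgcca
Rps28 (chr17:33824543-33824622, minus strand): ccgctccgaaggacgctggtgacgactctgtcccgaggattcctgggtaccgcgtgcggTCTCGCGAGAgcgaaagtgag
Rps3a1 (chr3:86142649-86142728, minus strand): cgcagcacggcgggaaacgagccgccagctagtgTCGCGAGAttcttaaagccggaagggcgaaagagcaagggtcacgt
Rps6 (chr4:86857348-86857427, minus strand): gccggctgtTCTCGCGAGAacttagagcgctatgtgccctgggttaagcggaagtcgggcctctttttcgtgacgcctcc

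The second feature is the pyrimidine tract. A run of at least 5 C or T bases on the gene's strand that spans the annotated start was in 28.0% of the windows of ribosomal protein genes with a TSS-covering region, in 9.0% of those of other genes with one and in 10.1% of all windows. The 6 windows below, from 30 bases before the start to 20 from it on, show such tracts in capitals, of 20 bases in Rpl27a and Rpl34, 18 in Rpl35, 14 in Rpl14, 13 in Rps10 and 11 in Rpl28.
Rpl27a (chr7:109519165-109519214, plus strand): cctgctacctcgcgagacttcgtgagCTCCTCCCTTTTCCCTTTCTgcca
Rpl34 (chr3:130730318-130730367, minus strand): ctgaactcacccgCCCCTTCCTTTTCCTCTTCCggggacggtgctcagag
Rpl35 (chr2:39005112-39005161, minus strand): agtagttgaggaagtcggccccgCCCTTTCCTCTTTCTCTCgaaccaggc
Rpl14 (chr9:120571487-120571536, plus strand): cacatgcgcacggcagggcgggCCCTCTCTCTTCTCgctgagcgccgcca
Rps10 (chr17:27635225-27635274, minus strand): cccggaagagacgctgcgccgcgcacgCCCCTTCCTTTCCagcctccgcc
Rpl28 (chr7:4792935-4792984, plus strand): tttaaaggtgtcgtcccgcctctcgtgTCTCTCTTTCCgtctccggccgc

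The third is CCGGAAG, the core bound by ETS-family factors such as GABP, searched on both strands. It was in 36% of the windows of ribosomal protein genes with a TSS-covering region, in 19.5% of those of other genes with one and in 8.9% of all windows. By apicidin call, it was in 3 of 4 windows of higher genes and in 3 of 14 windows of lower genes. Of the 42 windows of 38 uncalled genes, 15 held it. The core is shown in capitals, from 60 bases before the start to 20 from it on, for 5 genes called with apicidin. Of these, Rpl38 and Rpl37 were higher and Rpl19, Rps27l and Rps7 lower. Other called genes, among them Rpl10, Rps19, Rpsa and Rpl14, had no match in that stretch.
Rpl38 (chr11:114668520-114668599, plus strand): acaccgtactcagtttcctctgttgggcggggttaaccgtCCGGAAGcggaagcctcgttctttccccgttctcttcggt
Rpl37 (chr15:5116553-5116632, plus strand): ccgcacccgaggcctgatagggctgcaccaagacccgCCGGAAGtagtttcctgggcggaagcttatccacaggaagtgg
Rpl19 (chr11:98026650-98026729, plus strand): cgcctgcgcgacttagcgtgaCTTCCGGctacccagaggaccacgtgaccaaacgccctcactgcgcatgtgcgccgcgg
Rps27l (chr9:66946026-66946105, plus strand): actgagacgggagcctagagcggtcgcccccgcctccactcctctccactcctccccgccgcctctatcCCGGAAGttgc
Rps7 (chr12:28635934-28636013, minus strand): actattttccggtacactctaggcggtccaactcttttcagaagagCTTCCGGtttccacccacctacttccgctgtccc

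Other motifs were at shares nearer to those of other genes with a TSS-covering region. The GC box GGGCGG was in 56.0% of the ribosomal protein gene windows against 64.3%, CCAAT in 34.0% against 37.6%, TATAAA in 10.0% against 6.1% and the YY1 core AAGATGGC in 6.0% against 4.8%, all on both strands. The differences in share were not tested. A match describes the letters of the window and is not evidence of a bound factor.

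H3K27ac levels at ribosomal protein promoters were broad and near the level of other promoters when taken per length. The 53 TSS-covering regions had a median base mean of 627 (190.0 to 1351) against 475 over all 7889 TSS-covering regions, and a median width of 2621 bp against 1928 bp. Per kb of region, the median base mean was 240.8, against 237.3 in the other TSS-covering regions. The spread from gene to gene was 122 at Rpl36a to 428 at Rpl19 per kb. The highest levels per kb among main regions were those of Rpl19 (428), Rpl11 (404), Rps3a1 (371), Rpl31 (348) and Rps15 (341). The lowest were those of Rps29 (62.0), Rpl39l (74.2) and Rps25 (84.1), whose main regions lie off a TSS. Their base means were 11.2, 97.9 and 27.5, which leaves Rps29 and Rps25 with too little signal for a GSI test.

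Apicidin changed H3K27ac at 17 of the 65 main regions: 12 were lower and 5 higher by DESeq2 (adjusted p under 0.05 over all regions). Over all genes, 33% of main regions were lower and 10.7% higher. The median change of the 65 was -0.02 on the log2 scale. Of the 53 TSS-covering regions, 10 were lower (18.9%) and 4 higher (7.55%), against 39.4% and 8.01% of all TSS-covering regions. Their median was -0.02 with quartiles of -0.20 and 0.14, while the median of all TSS-covering regions was -0.24. Other genes' TSS-covering regions whose base mean lay within the quartiles of the 53 (495 to 792, 1519 regions) were lower in 49.4%, higher in 6.85% and had a median of -0.27. That set had a higher median level per kb (269, against 240.8 in the 53), with which the apicidin change varied, as given below. The share lower among the ribosomal protein promoters was thus below that of promoters in general, and the share higher was near it. This difference between sets of regions is a description without a test.

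The split into lower and higher depends on what the fold changes are centred on. Centred on the median of all TSS-covering regions, a shift of -0.24, 2 of the 53 were lower and 22 higher, against 17.9% and 20.2% of all TSS-covering regions. Centred on the stronger regions (base mean at the median or above), a shift of -0.10, 6 were lower and 8 higher, against 28.8% and 12%. With the trend over base mean removed, 5 were lower and 13 higher, against 25.8% and 13.3%. Under each of these centrings the ribosomal protein promoters were lower in a smaller share than all TSS-covering regions. The share higher was 41.5%, 15.1% and 24.5% in the same order, above that of all TSS-covering regions each time. That the share higher was near that of promoters in general thus held for the deposited fold changes only.

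**Figure D1:**
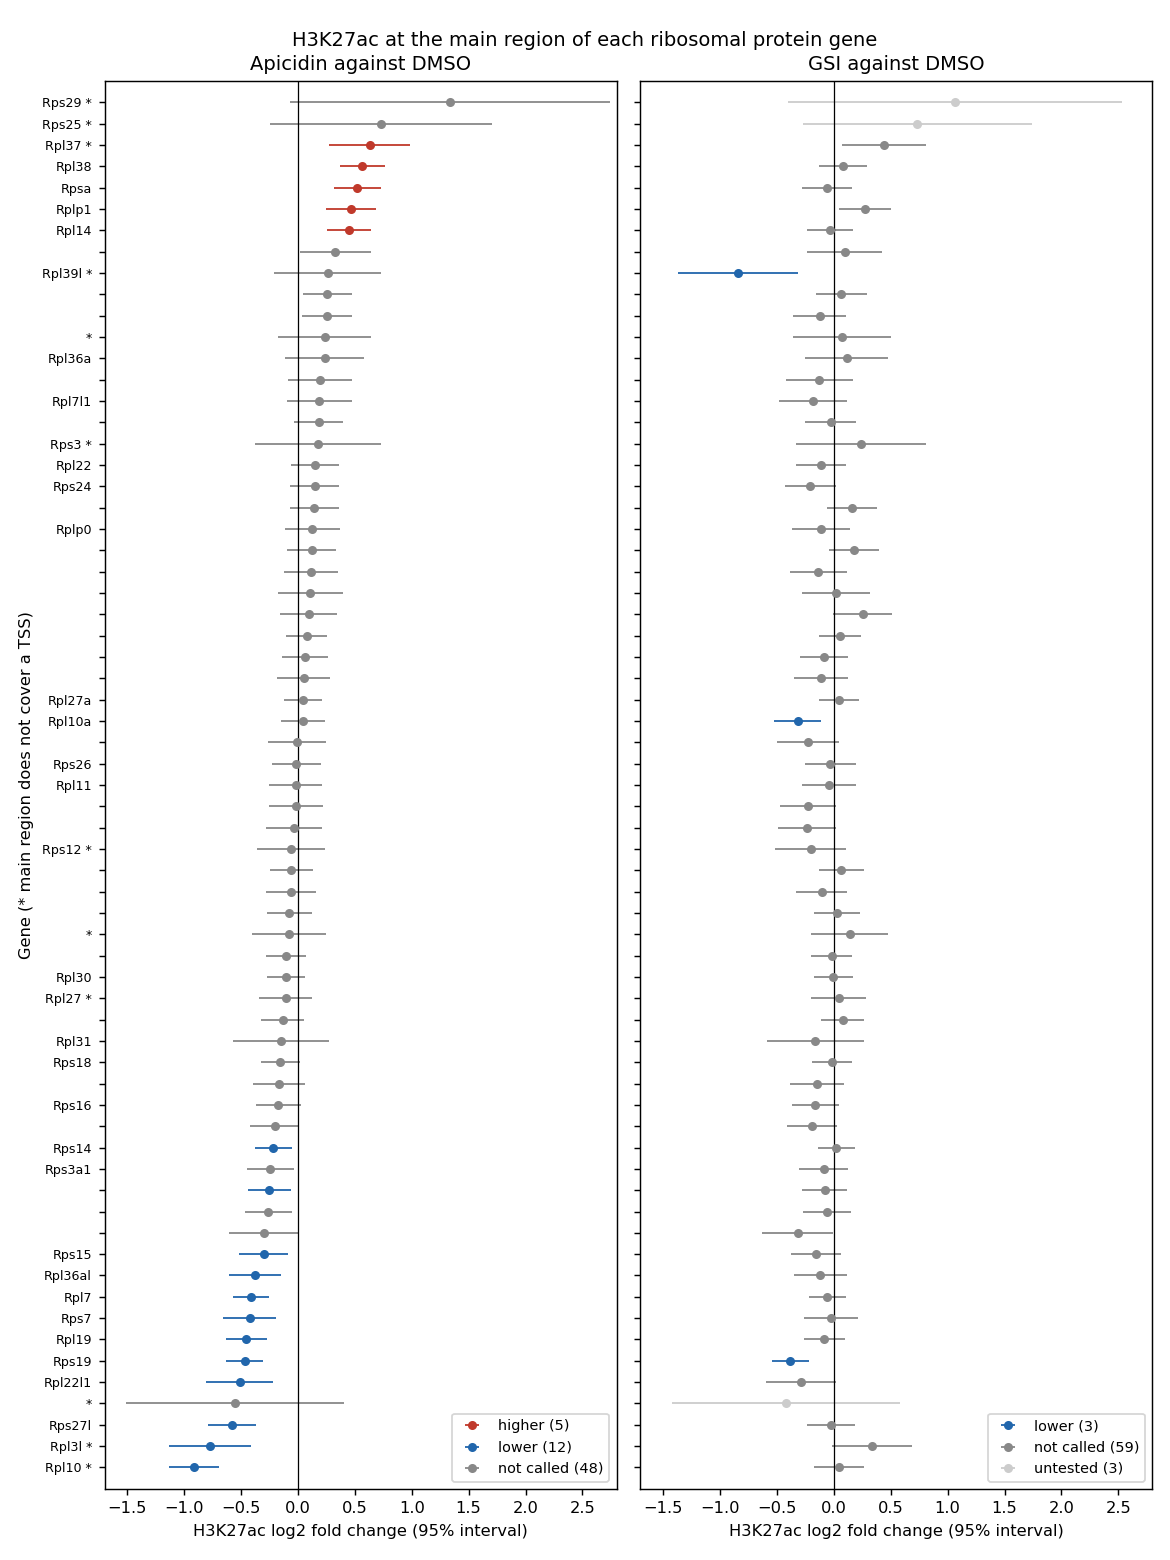
H3K27ac log2 fold change (x axis) at the main region of each of the 65 ribosomal protein genes (y axis, ordered by the apicidin change), for apicidin at the left and GSI at the right. Points are the authors' estimates, bars the 95% interval, colours the call, and an asterisk marks a main region that covers no TSS. Names are given for the genes chosen by the naming rule. With apicidin 12 genes were lower and 5 higher, and with GSI 3 were lower, none was higher and 3 were untested.

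The plot of all 65 genes shows that changes were small. Of the 48 genes not called with apicidin, 38 had a 95% interval wholly within 0.5 of 0 on the log2 scale and 10 had one reaching beyond. A change of at least 0.5 was seen at 4 of the 53 TSS-covering regions (7.55%), against 26.6% of the other TSS-covering regions. Rps26, Rpl27a and Rpl11, picked for a change near 0 together with a small SE, had -0.02 ± 0.11, 0.04 ± 0.09 and -0.02 ± 0.12 (SE). Rpl11 is a 5S RNA-associated protein that binds Mdm2 when ribosome assembly fails.

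Among large-subunit genes, 7 of 39 were lower (17.9%) and 4 higher (10.3%) with apicidin, against 33% and 10.7% of all genes' main regions. Rpl10, which joins the large subunit late in its assembly and is recurrently mutated in T-cell acute leukaemia, had the largest decrease among the 65 main regions, to 53.1% of DMSO (95% interval 45.6 to 61.8). Its region (chrX:71514195-71516041, on mm9 like all regions given here) lies 113 bp from the TSS. If the base mean averages all 6 H3K27ac libraries, its level per kb was 356 with DMSO, 189 with apicidin and 368 with GSI. The log2 fold change with apicidin was -0.91 ± 0.11 (SE, adjusted p = 1.87e-14). This region was thus low with apicidin and near its DMSO level with GSI. A second, weaker Rpl10 region 39 bp from the TSS (base mean 193) had -0.25 ± 0.18 with apicidin and was not called (adjusted p = 0.344).

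Rpl19, the gene of highest level per kb (chr11:97886746-97889901), was at 73.1% of DMSO (64.6 to 82.7), with implied levels per kb of 480.5 with DMSO, 351 with apicidin and 453 with GSI. Its log2 fold change was -0.45 ± 0.09 (adjusted p = 9.32e-06). Rpl7, another large-subunit protein (chr1:16092991-16097887), was at 75.2% (67.3 to 84.0), with implied levels of 299, 225 and 288 per kb in the same order. Its log2 fold change was -0.41 ± 0.08 (adjusted p = 7.37e-06). The implied GSI level lay between the other conditions at both genes, nearer to DMSO, and with GSI neither was called. The call at Rpl19 and at Rpl7 was lost when fold changes were centred on TSS-covering regions (adjusted p = 0.0642 and 0.103). Rpl3l, the striated-muscle paralog of Rpl3, was lower by -0.77 ± 0.18 (adjusted p = 0.000232) at a region 1133 bp from its TSS with a base mean of 231. The other large-subunit genes that were lower were Rpl22l1 (-0.51 ± 0.15), Rpl36al (-0.38 ± 0.12) and Rpl17 (-0.25 ± 0.10), and these 3 calls were also lost with that centring (adjusted p = 0.175, 0.406 and 0.934).

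The 4 large-subunit genes that rose were Rpl38, Rpl14, Rplp1 and Rpl37. Rpl38, a small protein whose loss in mice disturbs the axial skeleton (chr11:114529850-114533371), was at 148% of DMSO (129 to 170), with implied levels per kb of 167 with DMSO, 248 with apicidin and 177 with GSI. Its log2 fold change was 0.57 ± 0.10 (adjusted p = 5.27e-07). Rpl14 (chr9:120477197-120483724), whose 6527 bp region was the widest of the 65, was at 136% (119 to 156), with implied levels of 154, 210.0 and 151 per kb. Its log2 fold change was 0.45 ± 0.10 (adjusted p = 8.05e-05). At both genes the apicidin level was the high one, and DMSO and GSI lay close together.

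Rplp1 is 1 of the 3 stalk genes, whose acidic proteins recruit the elongation factors. It was at 138% of DMSO with apicidin (119 to 161; log2 fold change 0.46 ± 0.11, adjusted p = 0.000323) and its GSI change of 0.28 ± 0.12 was not called (adjusted p = 0.0990). Rplp0, the stalk base, had 0.13 ± 0.12 and Rplp2 -0.06 ± 0.10 with apicidin, neither called. Rpl37 was higher by 0.63 ± 0.18 (adjusted p = 0.00346) at a region of low base mean (189) that lies 138 bp from its TSS. The stalk genes therefore did not share a call.

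Among small-subunit genes, 5 of 26 were lower (19.2%) and 1 was higher (3.85%) with apicidin, against 33% and 10.7% of all genes' main regions. Rps19, the gene most often mutated in Diamond-Blackfan anaemia (chr7:25668258-25672630), was at 72.3% of DMSO (64.6 to 80.9), with implied levels per kb of 357 with DMSO, 258 with apicidin and 274 with GSI. Its log2 fold change was -0.47 ± 0.08 (adjusted p = 3.05e-07). Rps27l, a paralog of Rps27 and a target of p53 (chr9:66793095-66795450), was at 66.9% (57.7 to 77.5), with implied levels of 301, 201 and 296 per kb. Its log2 fold change was -0.58 ± 0.11 (adjusted p = 1.56e-06). Rps19 was thus lower under both compounds, whereas Rps27l with GSI stayed near its DMSO level.

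Rps7, another gene mutated in Diamond-Blackfan anaemia, was lower by -0.43 ± 0.12 (adjusted p = 0.00228), a call lost when fold changes were centred on TSS-covering regions (adjusted p = 0.246) and when the trend over base mean was removed (adjusted p = 0.0777). Rps15 (-0.30 ± 0.11, adjusted p = 0.0258) and Rps14 (-0.22 ± 0.08, adjusted p = 0.0374), both on the small subunit's head or platform, completed the decreases, and both calls were lost when fold changes were centred on TSS-covering regions (adjusted p = 0.704 and 0.896). Rpsa, a small-subunit protein also known as the laminin receptor precursor (chr9:120036818-120040070), was the single small-subunit gene that rose. It was at 144% of DMSO (124 to 166), with implied levels per kb of 180.2 with DMSO, 259 with apicidin and 173 with GSI, and a log2 fold change of 0.52 ± 0.11 (adjusted p = 1.27e-05). Rps19 and Rpsa, both of the small subunit, thus changed in opposite directions.

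The apicidin change varied with the level of H3K27ac. Over the 53 TSS-covering regions, the change fell with the base mean per kb, with Spearman's rho of -0.724 and Pearson's r of -0.642, against -0.351 and -0.350 over the 7836 other TSS-covering regions. These are correlations across regions, which are not replicates, and both axes come from the same libraries, so they are given without a p. The genes were divided into 4 ranges of level. In the lowest range (122 to 208 per kb, 14 genes) 4 were higher and 0 lower by DESeq2, and 7 and 0 by unadjusted p. The median change there was 0.24. In the next range, 0 of 13 genes were called, also by unadjusted p (median -0.01). In the range above it (241 to 296 per kb) 6 of 13 were lower, with a median of -0.20, and in the highest 4 of 13 were lower, with a median of -0.17. The 4 genes that rose at a TSS were thus all in the lowest range and the 10 that fell all in the upper ranges.

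Other genes' TSS-covering regions in the same ranges of level had lower medians, of -0.11, -0.18, -0.24 and -0.38 from the lowest to the highest range. The share of them that was lower rose from 18.9% through 29.5% and 42.3% to 66.1%. Of the ribosomal protein genes, 0% were lower in both lower ranges, 46.2% in the range above them and 30.8% in the highest. The share of other regions that was higher went from 10.6% through 8.99% and 7.03% to 4.90%, against 28.6% of the ribosomal protein genes in the lowest range and 0% in each of the others. Undivided base mean gave a rho of -0.353 for the 53 genes and 0.007 for the other regions, and the GSI change against the level per kb had a rho of -0.189. Rpl11, to the far right in the plot of level and change, had a level of 404 per kb and a change of -0.02 ± 0.12, so a high level did not go with a decrease at each gene.

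**Figure D2:**
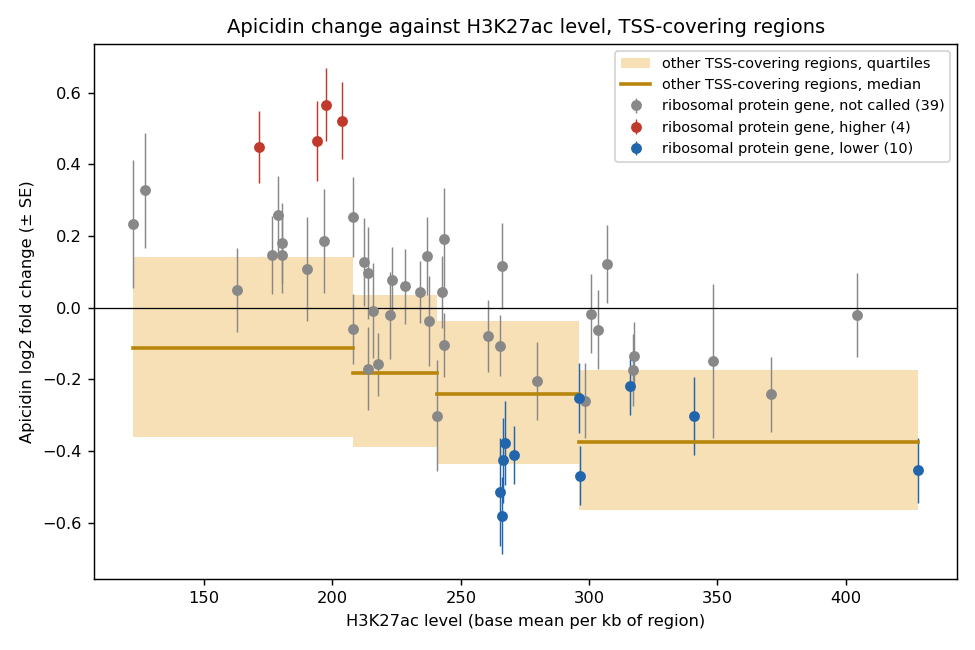
Apicidin log2 fold change (y axis, with SE bars) against the H3K27ac level as base mean per kb of region (x axis) for the 53 ribosomal protein genes with a TSS-covering region. Gold lines and bands are the median and quartiles of other genes' TSS-covering regions in the same 4 ranges of level. The 4 genes that rose lie below 208 per kb and the 10 that fell above 241.

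GSI gave few calls at the main regions of ribosomal protein genes. Of 62 main regions that the authors tested, 3 were lower (4.84%) and 0 higher, against 5.89% lower and 6.5% higher over all genes' main regions. By unadjusted p in the authors' DESeq2 test, 2 were higher and 4 lower. Rpl32, Rps25 and Rps29 had no adjusted p, as their base means were under 72.1. Of the 59 genes not called, 49 had a 95% interval within 0.5 of 0. No TSS-covering region of these genes changed by 0.5 or more, against 4.26% of the other TSS-covering regions. The median of the 53 was -0.06, against 0.002 over all TSS-covering regions. A negative change was seen at 38 of the 53, against 3910 of all 7889 TSS-covering regions, which was not tested. Of the 53, 2 (3.77%) were lower, against 4.36% of all TSS-covering regions, and 0 were higher (1 by unadjusted p), against 5.25%. The share lower was near that of all TSS-covering regions, and the share higher was below it.

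Rps19, which has 3 TCTCGCGA matches in the window printed above, was lower with GSI by -0.38 ± 0.08 (adjusted p = 0.000169), to 76.8% of DMSO. Rpl10a, a large-subunit protein (chr17:28463740-28467349), was lower by -0.32 ± 0.10 (adjusted p = 0.0229), with implied levels per kb of 257 with DMSO, 265 with apicidin and 206 with GSI. Rpl39l, a paralog of Rpl39 known from the testis, was lower by -0.84 ± 0.27 (adjusted p = 0.0177) at a region 24491 bp from its TSS. The calls at Rpl10a and Rpl39l were lost at an adjusted p of 0.01. The other genes with the TCTCGCGA element were not called with GSI, for example Rpl27a (0.04 ± 0.09) and Rps6 (-0.06 ± 0.11). Rpl30, Rps18 and Rps14, picked for a GSI change near 0 together with a small SE, had -0.01 ± 0.09, -0.01 ± 0.09 and 0.02 ± 0.08.

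Whether the compounds differed was tested as the difference of both log2 fold changes, whose SE is an upper bound because they share the DMSO libraries. Of the 65 main regions, 4 were lower with apicidin than with GSI and 4 higher, against 17.2% and 4.43% of all genes' main regions. The 4 lower were Rpl10 (difference -0.96, adjusted p = 1.28e-07), Rpl3l (-1.11, adjusted p = 0.00049), Rps27l (-0.56, adjusted p = 0.00627) and Rpl7 (-0.36, adjusted p = 0.0307). The 4 higher were Rpl39l (1.10, adjusted p = 0.0306), Rpsa (0.58, adjusted p = 0.00363), Rpl14 (0.48, adjusted p = 0.0141) and Rpl38 (0.48, adjusted p = 0.0166). The calls at Rps27l and Rpl7 were lost when centred on TSS-covering regions (adjusted p = 0.232 and 0.680) and with the trend over base mean removed (adjusted p = 0.131 and 0.535). The call at Rpl7 was also lost when centred on stronger regions (adjusted p = 0.199). At Rpl39l the difference came with a decrease under GSI (to 55.9% of DMSO) and an uncalled 0.26 ± 0.24 under apicidin. The difference at Rps19 was -0.09 ± 0.12 (adjusted p = 0.860), and its 2 decreases did not differ beyond their error.

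The paralog pairs listed for comparison had 12 genes in the table, and 3 pairs had both members there. Rpl22, whose loss blocks alpha-beta T-cell development in mice, had 0.15 ± 0.11 with apicidin (not called), while its paralog Rpl22l1 was lower by -0.51 ± 0.15 (adjusted p = 0.0045). Rpl7 was lower by -0.41 ± 0.08 and Rpl7l1 had 0.19 ± 0.15 (not called). Rpl36a had 0.23 ± 0.18 (not called) and Rpl36al was lower by -0.38 ± 0.12 (adjusted p = 0.00767). In each pair 1 member was called and the other was not, and the difference between the members was not tested. None of the calls at Rpl22l1, Rpl7 and Rpl36al held when fold changes were centred on TSS-covering regions. With GSI none of these 6 genes was called.

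RBPJ overlap, as marked by the authors, was at 9 of the 65 main regions (13.8%) and at 6 of the 53 that cover a TSS (11.3%, against 12% of the other TSS-covering regions). The 9 genes were Rpl22, Rpl22l1, Rpl27, Rpl27a, Rpl36a, Rps12, Rps16, Rps3 and Rps3a1. With GSI 0 of the 9 were called by the authors' DESeq2 test, against 5.89% lower and 6.5% higher over all genes' main regions. With 9 genes, 0 calls cannot be told apart from those shares. None of the 9 passed an unadjusted p of 0.05 either, and their median change was -0.09. With apicidin Rpl22l1 was lower and 0 were higher, against 33% and 10.7% of all genes' main regions. By unadjusted p, Rpl22l1 and Rps3a1 were lower and 0 were higher. Over all 237 regions, 13 overlapped RBPJ (5.49%, against 2.73% of all regions).

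The RBPJ core TGGGAA, searched on both strands of the 300-base windows, was in 5 of the 10 windows of the 9 genes (50%), and in 18% of the windows of ribosomal protein genes without the overlap. In other genes with a TSS-covering main region the shares were 29.2% with and 21.4% without RBPJ overlap. The 4 genes whose match lies within 110 bases before and 20 from the start are shown. Their main region overlaps RBPJ and their window holds the core. Whether the core lies inside the overlapping region was not read, and the main region of Rps3 lies 78 bp from the TSS. Capitals mark the core or its reverse complement TTCCCA.
Rpl22 (chr4:152325616-152325745, plus strand): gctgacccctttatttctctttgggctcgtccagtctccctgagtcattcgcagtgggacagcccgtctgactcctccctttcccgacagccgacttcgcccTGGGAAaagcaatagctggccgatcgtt
Rpl22l1 (chr3:28805398-28805527, plus strand): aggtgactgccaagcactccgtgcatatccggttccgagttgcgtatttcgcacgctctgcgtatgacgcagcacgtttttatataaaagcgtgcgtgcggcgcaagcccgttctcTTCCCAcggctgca
Rpl36a (chrX:134585544-134585673, plus strand): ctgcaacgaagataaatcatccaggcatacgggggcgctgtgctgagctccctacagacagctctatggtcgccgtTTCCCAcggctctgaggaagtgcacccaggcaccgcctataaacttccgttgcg
Rps3 (chr7:99483690-99483819, minus strand): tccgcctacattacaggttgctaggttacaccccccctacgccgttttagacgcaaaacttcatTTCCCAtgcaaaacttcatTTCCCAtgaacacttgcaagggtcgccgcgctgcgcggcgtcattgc

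Rps3 carries the core 2 times in this stretch, in a repeated unit, and Rpl22 carries it at 8 bases before the start. Rpl22l1, Rpl36a and Rps3 changed with GSI by -0.29 ± 0.16, 0.11 ± 0.19 and 0.24 ± 0.29, none called.

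Away from the start sites, 184 regions were assigned to the ribosomal protein genes, with a median base mean of 36.5, so that their fold changes have large errors. With apicidin 20 were higher (10.9%) and 14 lower (7.61%), near the 9.97% and 10% of all regions off a TSS, and the median was 0.18 against 0.06. A region is listed under 1 gene symbol, and regions at a distance may act on other genes. More than 1 kb and up to 10 kb away, 12 of 98 regions were higher and 3 lower (median 0.33), against 9.09% and 6.53% of all regions at that distance (median 0.16). More than 10 kb and up to 50 kb away, 2 of 55 were higher (3.64%) and 8 lower (14.5%), against 9.66% and 11.7% of all regions at that distance.

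Regions within 10 kb of a gene with a TSS-covering region were divided by the side on which they lie. On the downstream side, toward the gene body, 49 regions of 21 genes had a median of 0.48, with 9 higher and 1 lower, and 40 of 49 (81.6%) had a positive change. Other genes' downstream regions had a median of 0.20, with 66.8% positive, 7.93% higher and 3.55% lower. Upstream, 28 regions of 17 genes had a median of 0.09, equal to that of other genes' upstream regions (0.09). Of these 28, 3 were higher and 1 lower, against 9.54% and 9.02% of other genes' upstream regions. The difference between sides is a description, as regions of 1 gene are not independent.

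**Figure D3:**
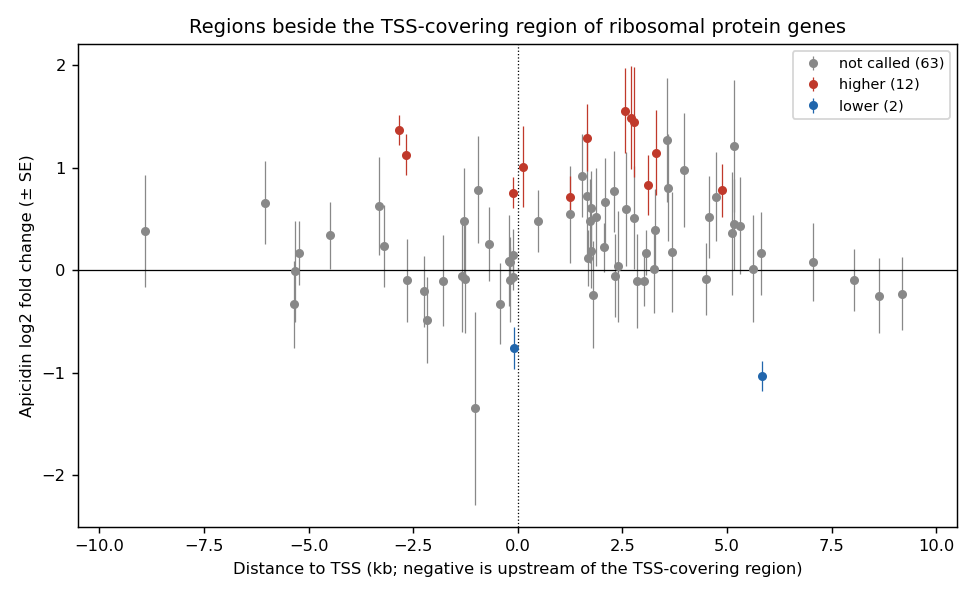
Apicidin log2 fold change (y axis, with SE bars) of the 77 regions within 10 kb of the start site of ribosomal protein genes that have a TSS-covering region, by distance to the TSS in kb (x axis, negative upstream). Points are regions and colours the call: 12 were higher and 2 lower, and 9 of the higher ones lie downstream.

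The downstream increases were at Rps9 (1.56 ± 0.42 at 2570 bp), Rpl7l1 (1.49 ± 0.50 at 2703 bp), Rps26 (1.45 ± 0.54 at 2765 bp), Rps24 (1.15 ± 0.41 at 3309 bp) and Rpl34 (1.01 ± 0.40 at 113 bp). Rpl5, which pairs with Rpl11 on the 5S RNA, had 2 such regions (1.30 ± 0.33 at 1659 bp and 0.78 ± 0.26 at 4891 bp). Rpl11 had 2 as well (0.71 ± 0.20 at 1239 bp and 0.83 ± 0.29 at 3101 bp), beside a promoter that did not change. Base means of the 9 regions were between 20.6 and 148, and at none of these genes was the TSS-covering region called. The downstream decrease was a region of Rps28 at 5836 bp that overlaps RBPJ (-1.03 ± 0.15, adjusted p = 9.30e-11).

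Upstream, Rps15a had the smallest adjusted p of the 184 regions off a TSS, 1.37 ± 0.14 at 2831 bp (adjusted p = 4.63e-19), with a second region at 120 bp (0.76 ± 0.15), while its TSS-covering region had 0.18 ± 0.11 and was not called. Rpl37a had 1.13 ± 0.20 at 2663 bp. At Rpl36a, a region 100 bp upstream that overlaps RBPJ was lower (-0.76 ± 0.21, adjusted p = 0.00185), whereas the TSS-covering region had 0.23 ± 0.18. With GSI the Rps15a and Rpl36a regions were not called (0.06 ± 0.16 at the former of Rps15a, 0.06 ± 0.21 at Rpl36a).

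Regions of Rpl11, Rpl38, Rplp0 and Rps24 were called in both directions with apicidin. At Rpl38 the TSS-covering region was higher, and a region 28308 bp away was lower (-0.66 ± 0.15, adjusted p = 0.000124). At Rplp0 a region 15074 bp away was lower (-0.96 ± 0.17, adjusted p = 4.09e-07) and one 20600 bp away was higher (0.69 ± 0.24). At Rpl11 a strong region 34428 bp away was lower (-0.22 ± 0.08), and at Rps24 one 288377 bp away (-0.40 ± 0.12). Farther changes were found at Rpl31, where 3 regions 25553 to 48801 bp away were lower (-1.07 ± 0.39, -1.22 ± 0.15 and -0.76 ± 0.13), and at Rplp1, where 3 weak regions 211487 to 244540 bp away were higher (3.04 ± 0.41, 2.01 ± 0.50 and 3.30 ± 0.67).

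With GSI, 53 of the 184 regions off a TSS were tested, and 1 was higher and 1 lower, against 7.2% higher and 8.35% lower over all regions off a TSS. The lower one was the Rpl39l region described above.

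Other genes of ribosome production were read from lists chosen with earlier results known. Gnb2l1, which encodes Rack1, a ribosomal protein outside the symbol rule, had 0.10 ± 0.10 with apicidin and was not called. All 36 ribosome biogenesis genes had a region, of which 10 were lower (27.8%) and 5 higher (13.9%) with apicidin (median -0.03), near the 33% and 10.7% of all main regions. Among these, nucleophosmin (Npm1, -0.59 ± 0.17), nucleolin (Ncl, -0.27 ± 0.11) and Pes1 (-0.61 ± 0.13) fell, and the methyltransferase Nop2 (0.58 ± 0.13) and Rrp12 (0.65 ± 0.17) rose.

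For RNA polymerase I and its factors, 3 of 13 genes with a region were lower (23.1%) and 0 higher (0 also by unadjusted p in DESeq2). Over all main regions, 33% were lower and 10.7% higher. Ubtf, which binds the ribosomal DNA, was among the 3 (-0.43 ± 0.07). Of 32 translation factor genes, 12 were lower (37.5%) and 1 was higher, with a median of -0.20. Eif4g2 (-0.74 ± 0.08), the translation repressor gene Eif4ebp1 (-0.62 ± 0.11) and the start-codon selection factor Eif1 (-0.55 ± 0.09) fell, and Eif3g (0.71 ± 0.15) rose. With GSI, 1 of 34 tested biogenesis genes was higher (2.94%, Heatr1) and 2 were lower (5.88%, Nop56 and Rrp1b). Over all main regions, 6.5% were higher and 5.89% lower with GSI. None of the 12 polymerase I and 31 translation factor genes tested was called with GSI by the authors' DESeq2 test. By unadjusted p, 0 of the former and 3 of the latter passed. With apicidin, the share of translation factor genes called lower (37.5%) was nearer to the 33% of all main regions than that of the 65 ribosomal protein genes (18.5%). This was not tested.

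**Figure D4:**
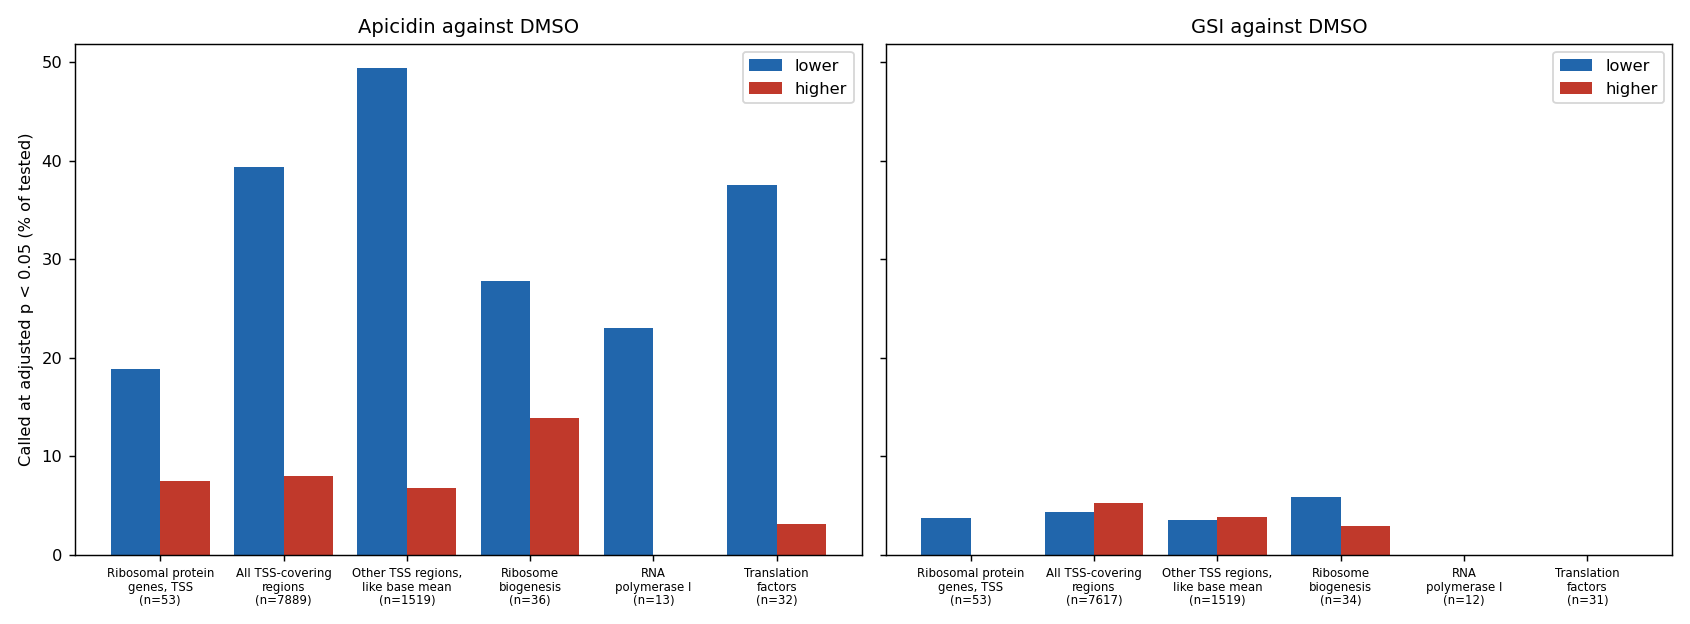
Percent of tested regions called lower (blue) or higher (red) at an adjusted p under 0.05 (y axis), with apicidin at the left and GSI at the right, for the 53 ribosomal protein genes with a TSS-covering region, all TSS-covering regions, other genes' TSS-covering regions of like base mean and the main regions of 3 gene lists. With apicidin 18.9% of the ribosomal protein promoters were lower, against 39.4% and 49.4% in the sets of TSS-covering regions.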

How the data were processed

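H3K27ac was profiled by ChIP-seq in 6 of 11 libraries, grouped by the treatment in the labels. Reads were processed by the authors with FastQC, Bowtie2, SAMtools and deepTools on mm9, per the submitters' processing notes. No source used here gives the region caller, the read counter or any version. Per the file headers, the deposited table holds DESeq2 output: the base mean, a signal that averages normalised counts, the log2 fold changes and their SE, the Wald score, and p-values with adjusted p-values. The reference of the fold changes is not named and was taken to be DMSO. The authors' deposited distance to the TSS and RBPJ overlap were used as given. Depth per library is unknown, and precision is carried by the SE.

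Calls were the authors' adjusted p under 0.05. Regions without one (30586 of 56342 for GSI) stayed untested. The 95% intervals are normal intervals from the SE. Apicidin and GSI were compared through the difference of their fold changes, divided by the root of the sum of both squared SEs. Its p is normal and two-sided, adjusted over 56342 regions by Benjamini-Hochberg. The test was run on simulated fold changes whose errors were drawn independently from the same SEs. That setting leaves out the shared DMSO libraries, so it cannot show how the test behaves on these data. A level per condition assumes that the base mean averages all 6 H3K27ac libraries. Python 3.11.15, pandas 2.3.3, numpy 2.4.6, scipy 1.17.1 and matplotlib 3.10.9 were used. Promoter windows were RefSeq's on GRCm38.p6, matched by symbol, and no coordinate was carried between builds.

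The genes and lists were chosen with earlier results of these data known. Members are named by size of change with apicidin (12 of smallest adjusted p and up to 6 in the rarer direction). They are also named by size of change with GSI (up to 10), by the difference (8) and by level (5 highest, 3 lowest per kb). Further members are named by nearness to 0 with a small SE (3 per compound), and as paralogs, RBPJ-overlapping genes or genes called in both directions. Others were chosen after their values were seen: Rpl17 completes the count of decreases, and Rplp2, Rps6, single genes of the other lists and regions off a TSS serve as examples. The alternatives were another threshold, a minimum change, other centrings, a trend over base mean and other regions per gene. Protein identity between paralogs was not analysed here. Some genes are not reported by name here.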

Additional observations from a re-analysis of the deposited data

How the results depend on the processing

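No paired analysis was possible because the table gives no value per library, and leaving out a library was not run for the same reason. Of the counts of 65 genes (12 lower and 5 higher with apicidin, 3 and 0 with GSI, 4 and 4 for apicidin minus GSI), these moved by more than 1.5 times. At an adjusted p under 0.01, GSI gave 1 lower and the difference 1 higher. With a log2 change of at least 0.5, apicidin gave 4 lower and 3 higher, GSI 1 lower and the difference 2 higher. Centred on stronger regions, apicidin gave 9 higher. Centred on TSS-covering regions, apicidin gave 4 lower and 23 higher, and the difference 2 lower and 9 higher. With the trend over base mean removed, apicidin gave 7 lower and 14 higher, and the difference 2 lower and 7 higher. With each gene's strongest region, GSI gave 1 higher. With the region of smallest p, apicidin gave 19 lower and 14 higher, GSI 1 higher and the difference 7 lower and 7 higher. Over all regions of a gene, the share overlapping RBPJ was 5.49% in place of 13.8%. Without division by width, the median level was 1.33 times that of other TSS-covering regions in place of 1.02. Testing GSI with no filter on base mean, or TSS-covering regions alone, moved no count by over 1.5 times. Of the combinations of a single gene's result and a setting, 174 kept the call and 45 lost it, and a gene can count in both. Many of the 174 were fixed in advance. Choosing the region of smallest p keeps a called gene called. The strongest region was the main region at each of these genes but Rps14. The tally is therefore no measure of how stable the calls are. Rps14 with apicidin changed sign when centred on TSS-covering regions, to 0.019, which was not called. Low base mean limits the regions off a TSS. The cause of these changes was not tested.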
